A study of Homo sapiens with 12 samples.

Results

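The genes described are 10 genes of the regulated secretory pathway, namely 6 of the granin family (VGF, SCG2, CHGA, CHGB, SCG3 and SCG5) and 4 neuropeptide precursors (SST, GAL, NPY and TAC1). Their rows were taken by symbol, and the list was chosen with earlier results of these data known. A row was present for 9 of them among 16406 genes in motor neurons, where NPY had none, and for all 10 among 19016 genes in NGN2 neurons. RNA-seq compared human neurons after SMN knockdown (SMN-KD) with neurons carrying a scrambled shRNA (SCR), with 3 libraries in each of 4 groups and 12 in all. SMN, encoded by SMN1 and SMN2, is the protein whose loss causes spinal muscular atrophy, and the design asks which transcripts change when it is low. iMNs were motor neurons made with small molecules from an iPSC line and sorted for Td-Tomato, which the HB9 promoter drives. i3Ns were neurons made from H1 ES cells, an established line, by doxycycline-inducible NGN2, a proneural transcription factor that drives an excitatory neuron fate. SMN-KD and SCR cells alike received a lentiviral, doxycycline-inducible shRNA and were harvested after 12 days of knockdown. Each cell type came from a single line and protocol, so cell type, line and protocol cannot be told apart.

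Granins are acidic proteins that are packed with neuropeptides, hormones and monoamines into dense-core vesicles, which nerve and endocrine cells release on stimulation. Several are also precursors that prohormone convertases cut at pairs of basic residues into bioactive peptides. Neuropeptide genes are commonly switched by neuronal activity through cyclic AMP response elements, which bind CREB, and many genes of this pathway are held silent outside neurons by the repressor REST.

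Values are those of the authors' deposited DESeq2 tables, 1 for each cell type, which give a gene's mean normalized count over 6 libraries, its log2 fold change (SMN-KD over SCR) with standard error, and its adjusted p. Group means were derived from the mean and the fold change. Values of single libraries were not analysed here, so no statement is made on overlap between libraries, and the ± below is the deposited standard error with 3 libraries against 3. The sources do not say that libraries of a group were separate cultures, so the p-values measure only the spread between these libraries, which may be technical. A gene was called lower or higher at an adjusted p under 0.01, and a DEG when the log2 fold change also exceeded 1 in size. The target was lowered in the libraries labelled as knockdown. Summed over the 5 identifiers of SMN1 and SMN2, the mean went from 1923 to 424 in iMNs and from 1839 to 318 in i3Ns.

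SMN-KD i3Ns had much less RNA of 5 members, VGF, SCG2, SST, GAL and NPY, which were at 7.57% to 19.2% of the SCR mean, and less TAC1. The granins CHGA and SCG3 fell slightly, and CHGB and SCG5 did not pass the test. In all, 8 of 10 members were lower and 0 were higher, where 25.7% of all genes of the table were lower and 22.8% were higher. As DEGs, 6 members were lower and 0 were higher, against 9.53% and 4.23% of all genes. In iMNs, 3 of 9 members (TAC1, SCG2 and SST) were lower and 1 (CHGB) was higher, where 18.7% of all genes were lower and 17.1% were higher. These counts take the main identifier of each gene, and a further identifier of SCG5 that held more counts was higher in iMNs. TAC1 was the sole DEG of the members in iMNs, where 2.37% of all genes were lower and 0.969% were higher DEGs. The members' median was -1.78 on the log2 scale in i3Ns and -0.12 in iMNs. Over genes with a mean of at least 100 it was -1.18 for 9 members in i3Ns and -0.13 for 8 in iMNs, beside 0.01 for all such genes in either table. In bulk RNA, fewer cells of a type and less RNA per cell cannot be told apart.

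**Figure D1:**
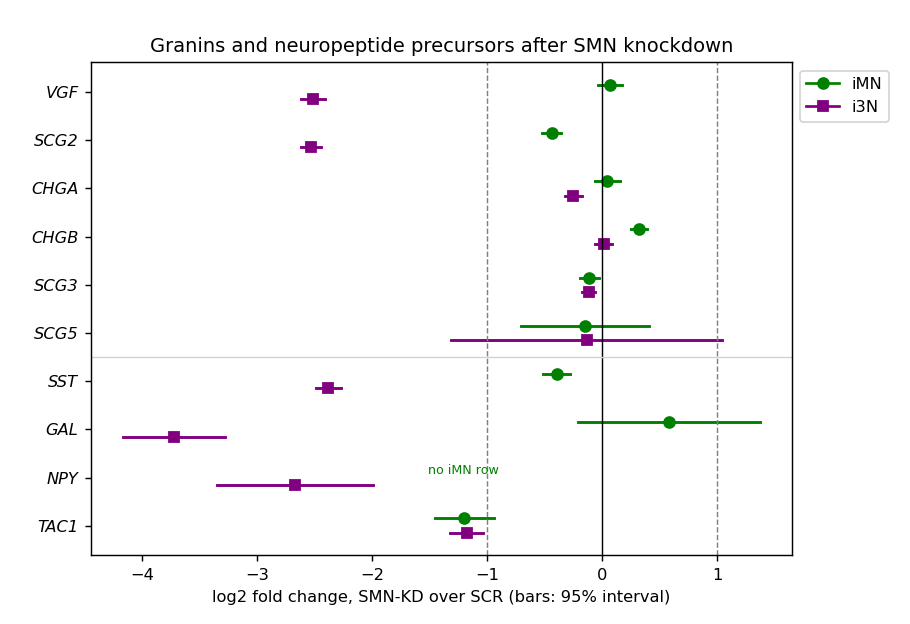
Log2 fold change of each member (SMN-KD over SCR, x axis) in iMNs (circles) and i3Ns (squares), with 95% intervals from the deposited standard errors of 3 against 3 libraries; dashed lines mark 1 in size. VGF, SCG2, SST and GAL lie between -2.38 and -3.72 in i3Ns and between -0.44 and 0.58 in iMNs, TAC1 lies near -1.2 in both, and the interval of SCG5 is wide.

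VGF is the precursor of several secreted neuroendocrine peptides and is induced by neurotrophins and activity. It lies on chromosome 7 of GRCh38 at chr7:101162509-101165569 on the minus strand (ENSG00000128564, 2 exons). In i3Ns its derived mean count was 29131 in SCR and 5089 in SMN-KD. This was 17.5% of the SCR level, with a 95% interval of 16.3% to 18.8%, and a log2 fold change of -2.52 ± 0.053 with an adjusted p listed as 0. Among i3N genes with a mean of at least 100, 1.54% had a log2 fold change as low. In iMNs the VGF mean was 108167 in SCR and 113081 in SMN-KD. That log2 fold change of 0.06 ± 0.053 did not pass the test (adjusted p = 0.401), with an interval of 97.3% to 112% of SCR. VGF had the rank 15 by mean count in the iMN table and 350 in the i3N table.

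SCG2 (secretogranin II, chr2:223596940-223602361, minus strand, ENSG00000171951) is the granin that yields secretoneurin. Its mean went from 8239 in SCR to 1421 in SMN-KD i3Ns, a log2 fold change of -2.54 ± 0.044 (adjusted p listed as 0), which left 17.2% of SCR. The log2 fold changes of VGF and SCG2 in i3Ns lay 0.02 ± 0.069 apart. In iMNs SCG2 fell less, from 33640 to 24784 or 73.7% of SCR, with a log2 fold change of -0.44 ± 0.042 (adjusted p = 5.28e-25).

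The chromogranins, soluble matrix proteins of the dense-core vesicle, moved little. CHGA (chromogranin A, chr14:92923150-92935285, plus strand, ENSG00000100604) went from 8634 to 7242 in i3Ns, a log2 fold change of -0.25 ± 0.037 (adjusted p = 4.01e-11). In iMNs CHGA was at 5698 in SCR and 5869 in SMN-KD and did not pass the test (log2 fold change 0.04 ± 0.057, adjusted p = 0.580). CHGB (chromogranin B, chr20:5911510-5925353, plus strand, ENSG00000089199) had a mean of 7126 in SCR and 7180 in SMN-KD i3Ns. The CHGB interval there was narrow, from 95.8% to 106% of SCR (adjusted p = 0.927). In iMNs CHGB was the member that rose by its main identifier, from 9825 to 12249, with a log2 fold change of 0.32 ± 0.037 (adjusted p = 1.36e-16).

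SCG3 (secretogranin III, chr15:51681492-51721026, plus strand, ENSG00000104112) binds chromogranin A and holds it at the granule membrane. Its mean went from 12911 to 11883 in i3Ns, a log2 fold change of -0.12 ± 0.029 (adjusted p = 0.000115). The same log2 fold change, -0.12 ± 0.042, was measured in iMNs, from 14128 to 13039, and missed the threshold there (adjusted p = 0.0141). The SMN-KD level of SCG3 was 92.0% of SCR in i3Ns and 92.3% in iMNs.

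SCG5 encodes 7B2, the chaperone of the prohormone convertase PCSK2, and its main identifier was measured with little precision. That identifier (ENSG00000166922, chr15:32641676-32697098, plus strand) had a mean of 267 in SCR and 242 in SMN-KD i3Ns, and an interval from 40.3% to 205% of SCR (adjusted p = 0.558). In iMNs the log2 fold change was -0.15 ± 0.28 (adjusted p = 0.399), from 1078 to 973. The symbol SCG5 is carried by 3 identifiers in either table, and the main identifier held 28.5% of their summed mean in iMNs and 16.8% in i3Ns. A further identifier (ENSG00000281931), outside the main annotation, held more, and its log2 fold change was 0.27 ± 0.077 in iMNs (adjusted p = 0.00110) and 0.13 ± 0.076 in i3Ns (adjusted p = 0.143). Summed over identifiers, SCG5 went from 3435 to 3753 in iMNs and from 1470 to 1552 in i3Ns, so the sign of the small difference turned. CHGA has 2 identifiers, and summing them gave log2 ratios of 0.04 in iMNs and -0.26 in i3Ns.

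SST, the precursor of the inhibitory peptide somatostatin, lies at chr3:187668912-187670394 on the minus strand (ENSG00000157005). Its mean fell from 9441 in SCR to 1812 in SMN-KD i3Ns, a log2 fold change of -2.38 ± 0.054 (adjusted p listed as 0), which left 19.2% of SCR (95% interval 17.8% to 20.7%). In iMNs SST went from 2504 to 1900, or 75.9% of SCR, with a log2 fold change of -0.40 ± 0.059 (adjusted p = 6.34e-11). SST and SCG2 were thus lower in either cell type, and by more in i3Ns.

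GAL (galanin, chr11:68683779-68691175, plus strand, ENSG00000069482), a peptide known for its induction in injured neurons, had the lowest log2 fold change of the members. Its mean was 423 in SCR and 32.1 in SMN-KD i3Ns, which is 13.2-fold lower, with a log2 fold change of -3.72 ± 0.23 (adjusted p = 1.99e-60). In i3Ns 50 genes with a mean of at least 100, or 0.390%, were as low. In iMNs GAL was scarce, at 39.2 in SCR and 58.5 in SMN-KD, with a log2 fold change of 0.58 ± 0.40 and an adjusted p of 0.0354, which did not pass. That iMN fold change appears shrunken toward 0, since its ratio to the standard error is 1.43 where the deposited p-value corresponds to 2.44.

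NPY (neuropeptide Y, chr7:24284188-24291862, plus strand, ENSG00000122585), a peptide of interneurons and sympathetic neurons, had a mean of 117 in SCR and 18.3 in SMN-KD i3Ns. The log2 fold change was -2.67 ± 0.35 (adjusted p = 4.72e-15), and the interval ran from 9.80% to 25.1% of SCR, so it is less precise than that of VGF, SCG2 or SST.

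TAC1 (chr7:97732084-97740472, plus strand, ENSG00000006128), the precursor of substance P and neurokinin A, fell in each cell type to a similar share of SCR. In i3Ns the mean went from 1905 to 841, or 44.2% of SCR, with a log2 fold change of -1.18 ± 0.072 (adjusted p = 2.92e-59). In iMNs it went from 912 to 397, or 43.5% of SCR, with a log2 fold change of -1.20 ± 0.13 (adjusted p = 1.07e-19). This fall stood further out in iMNs, where 1.35% of genes with a mean of at least 100 were as low, than in i3Ns, where 7.24% were.

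**Figure D2:**
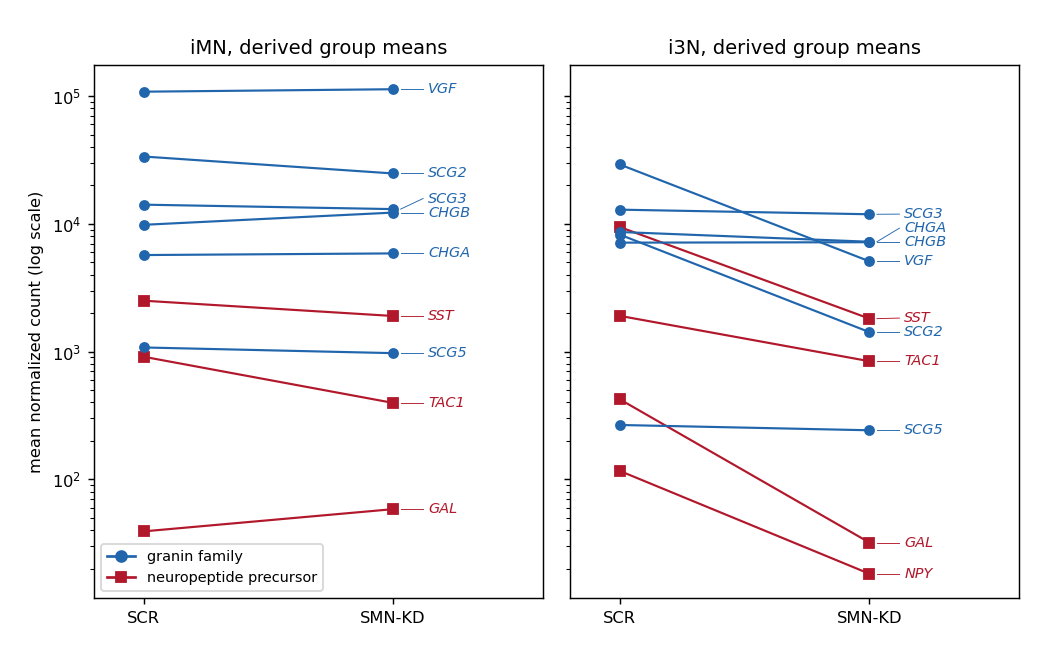
Derived mean normalized count (log axis, means of 3 libraries, without error bars because single libraries were not analysed) of each member in SCR and SMN-KD, for granins (circles) and neuropeptide precursors (squares). In i3Ns the lines of VGF, SCG2, SST, GAL and NPY drop steeply beside the nearly level lines of CHGA, CHGB, SCG3 and SCG5, while in iMNs TAC1 has the steepest line and VGF stays highest.

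In SCR neurons the order of the members differed between cell types when levels were set per kilobase of transcript and per 1000000 of the summed normalized counts. In iMNs VGF led at 979, followed by SCG2 at 319, SCG3 at 103, SST at 95.2, CHGB at 92.1, CHGA at 66.3, SCG5 at 20.8, TAC1 at 19.8 and GAL at 1.21. In i3Ns SST led at 345 and VGF followed at 254, then CHGA at 96.6, SCG3 at 90.7, SCG2 at 75.1, CHGB at 64.3 and TAC1 at 39.9. The scarcest in i3Ns were GAL at 12.6, SCG5 at 4.94 and NPY at 4.66. After SMN-KD, i3N levels on this scale were 66.3 for SST, 44.3 for VGF and 13.0 for SCG2, below CHGA at 81.0 and SCG3 at 83.5, while CHGB was at 64.7. These levels carry no error, since values of single libraries were not analysed, so neighbours in the order cannot be said to differ. The tables were normalized separately, and SCG5 and CHGA would stand higher with their further identifiers included.

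**Figure D3:**
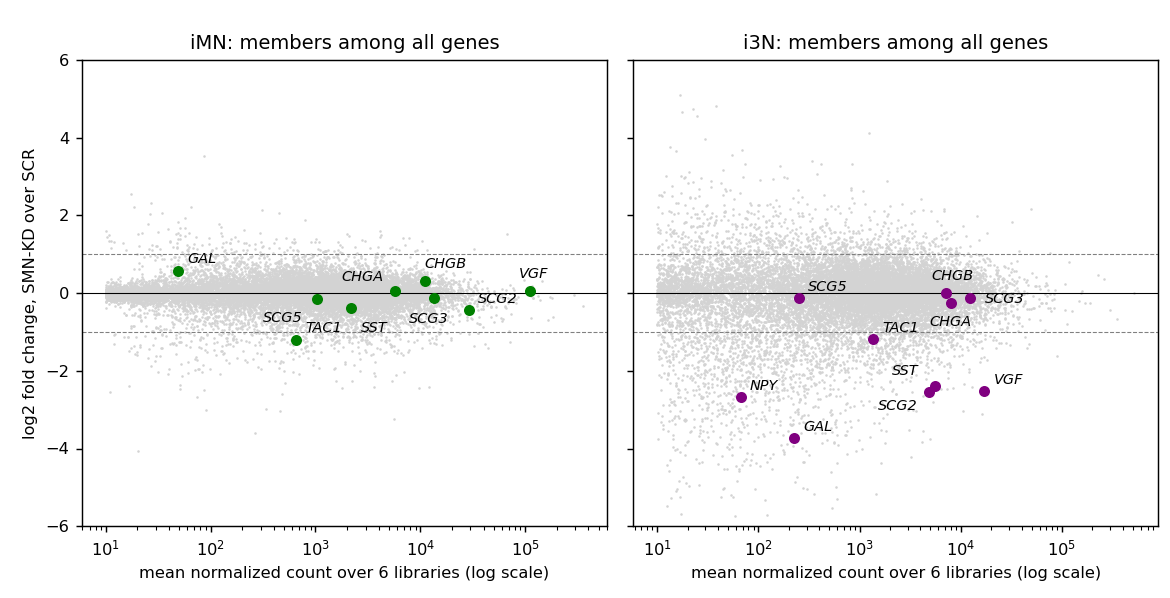
Log2 fold change (SMN-KD over SCR, y axis) against mean normalized count over 6 libraries (x axis, log scale) for genes with a mean of at least 10 (grey) and the members (colored), in iMNs and i3Ns; fold changes beyond 6 in size are not drawn. In i3Ns VGF, SCG2 and SST lie between -2.38 and -2.54, where 1.51% to 1.80% of genes with a mean of at least 100 were as low, while in iMNs TAC1 is lowest of the members at -1.20, where 1.35% were as low.

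The response differed between cell types for 6 of 9 members tested. The test was a Wald z of the difference of the log2 fold changes (i3N minus iMN), adjusted over 16093 genes, and all 6 differences were negative, where 18.1% of all genes had a negative and 16.0% a positive difference. They were largest for GAL (-4.30 ± 0.46, adjusted p = 3.19e-19), VGF (-2.58 ± 0.075, adjusted p = 7.62e-255), SCG2 (-2.09 ± 0.061, adjusted p = 9.75e-258) and SST (-1.98 ± 0.081, adjusted p = 5.25e-131). CHGB (-0.31 ± 0.053, adjusted p = 5.30e-08) and CHGA (-0.30 ± 0.068, adjusted p = 5.84e-05) differed by less, and their calls were lost when the standard errors were doubled. For TAC1 the difference was 0.02 ± 0.15, with a 95% interval from -0.27 to 0.32. The SCG3 difference was bounded more closely, from -0.10 to 0.096, and that of the main identifier of SCG5 hardly at all, from -1.29 to 1.31. The further SCG5 identifier with more counts (ENSG00000281931) differed by -0.14 ± 0.11, with an interval from -0.35 to 0.072, and did not pass (adjusted p = 0.323). NPY could not be compared. GAL in iMNs had a mean of only 48.9, so its difference rests on a scarce transcript there.

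The promoters of 7 members (SST, NPY, TAC1, VGF, CHGA, SCG5 and SCG3) were matched in RefSeq sequences of GRCh38.p14, 300 bases each from 250 before the start to 50 after it. The palindromic cyclic AMP response element TGACGTCA was found in 3 of the 7, VGF, SST and CHGA, beside 540 of 27305 promoters (1.98%). GAL, SCG2 and CHGB were not searched, because the promoter sequences used held no entry for them. Among the other listed genes it was also found in PCSK1, the convertase that cuts many of these precursors, SLC18A2, CARTPT, ISL2 and PAX6. Their log2 fold changes in i3Ns were -3.83, -0.82, -0.49, 0.35 and -1.29, of which that of CARTPT did not pass the test. SLC18A2 and CARTPT were scarce there, with means of 82.0 and 2.90. In iMNs the same genes were at -0.54, -0.45, 0.08, 0.18 and 0.08, of which only PCSK1 passed. The 3 member windows are shown because VGF and SST fell strongly in i3Ns and CHGA did not, and PCSK1 is shown beside them for its role. They run 5′ to 3′ on the gene's strand, with the element in capitals.
VGF: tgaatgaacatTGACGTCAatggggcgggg
SST: gcctcctagccTGACGTCAgagagagagtt
CHGA: ggcggcaccgcTGACGTCAtttccggggtc
PCSK1: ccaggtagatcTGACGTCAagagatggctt
The windows lie at chr7:101165630-101165659 (minus strand, element 79 bases before the RefSeq start) for VGF and chr3:187670423-187670452 (minus strand, 47 bases before) for SST. Those of CHGA and PCSK1 lie at chr14:92923085-92923114 (plus strand, 54 bases before) and chr5:96433307-96433336 (minus strand, 77 bases before). The shorter core TGACG, which the full element contains, was found on either strand in 6 of the 7, all but NPY, and in 25.0% of all promoters. Among i3N genes with a mean of at least 100, the 331 with the full element had a median of 0.03 on the log2 scale, and 7.25% were lower DEGs, against 8.93% of those without it. In iMNs the shares were 3.66% of 328 genes and 2.41%. A match is a description of these letters and not of binding.

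Because an shRNA guide can act on other transcripts through its seed, the 3′-UTRs of the members were searched for matches to bases 2 to 8 and 3 to 9 of each guide. None of the 10 members held CTAATAA or GCTAATA, the matches to the SMN guide, which occur in 20.0% of the genes of each table with a mean of at least 100. The members' 3′-UTRs are 153 (SST) to 1500 (SCG3) bases long. That share was not matched for length, so the absence says little. SST held ACTAGTA, a match to the scrambled guide that the SCR cells carry, at chr3:187669050-187669056 in the last of 2 exons (minus strand), a match found in 6.75% of i3N genes. The 30 bases around it, with the match in capitals, are shown because SST is among the members that fell most.
SST: ctttcttaACTAGTAttgtccatatcagac
No other member held either scrambled match. That guide was given to the SCR cells and not to the SMN-KD cells, and the part of this match in the SST values was not tested.

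Genes that cut, modify and load peptides showed a mixed picture. Of 19 such genes, 8 were lower, 5 were higher and 6 did not pass in i3Ns, where 25.7% of all genes were lower and 22.8% higher. Their median there was -0.11 on the log2 scale. In iMNs 4 were lower, 6 were higher and 9 did not pass, where 18.7% of all genes were lower and 17.1% higher. PCSK1, prohormone convertase 1, fell from 7706 to 541 in i3Ns, a log2 fold change of -3.83 ± 0.057 (adjusted p listed as 0), and from 10727 to 7378 in iMNs (-0.54 ± 0.071, adjusted p = 5.78e-14). Its log2 fold changes thus differed by -3.29 ± 0.091 (adjusted p = 1.15e-283). CADPS2, which primes dense-core vesicles for release, fell from 2506 to 249 in i3Ns (-3.33 ± 0.085) and was scarce in iMNs, at 41.2 in SCR. QPCT, which forms the pyroglutamate end of some peptides, fell in i3Ns by 2.16 on the log2 scale. PCSK1N, the precursor of the PCSK1 inhibitor proSAAS, was lower in both, at -0.91 ± 0.031 in i3Ns and -0.28 ± 0.039 in iMNs.

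Other abundant genes of the same machinery moved by less or did not pass. SYT7, a calcium sensor of vesicle release, was lower in i3Ns (-0.58 ± 0.050) and iMNs (-0.55 ± 0.046). CPE, the carboxypeptidase that trims cut peptides, rose alike in i3Ns (0.29 ± 0.024) and iMNs (0.32 ± 0.038). PTPRN, a protein of the dense-core vesicle membrane, did not pass in i3Ns (-0.01 ± 0.054) or iMNs (0.04 ± 0.031). CADPS, the paralog of CADPS2, did not pass either, at -0.06 ± 0.041 and -0.08 ± 0.046. The difference between cell types was negative for 5 of the 19, namely PCSK1, CADPS2, QPCT, PCSK1N and RAB3A, a vesicle GTPase. It was positive for 0, where 18.1% of all genes had a negative and 16.0% a positive difference.

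Further neuropeptide precursors were mostly scarce. Of 31 listed, 21 had a row in the iMN table, 21 in the i3N table and 18 in both. In i3Ns 10 were lower, 1 was higher and 10 did not pass, where 25.7% of all genes were lower and 22.8% higher. Their median there was -0.91 on the log2 scale. TRH, the thyrotropin-releasing hormone precursor, went from 273 to 43.4 in i3Ns (-2.65 ± 0.25) and from 803 to 451 in iMNs (-0.83 ± 0.14). PENK, the enkephalin precursor, went from 589 to 160 in i3Ns (-1.89 ± 0.16, adjusted p = 1.30e-33), and PTHLH from 288 to 83.0 (-1.80 ± 0.22). UCN, urocortin, was the 1 that rose in i3Ns (1.13 ± 0.31), and it is named after its value was seen. In iMNs 2 were lower, TRH and PTHLH, 4 were higher and 15 did not pass, where 18.7% of all genes were lower and 17.1% higher. ADCYAP1, the precursor of the peptide PACAP, was the 1 higher DEG there, from 235 to 572 (1.28 ± 0.14, adjusted p = 4.80e-20), and did not pass in i3Ns (-0.03 ± 0.13). NMU, neuromedin U, went in opposite directions, from 141 to 247 in iMNs (0.81 ± 0.18) and from 77.4 to 23.2 in i3Ns (-1.74 ± 0.38).

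Receptors for the peptides of the members changed in different directions. In iMNs 4 of 6 with a row were lower, 0 were higher and 2 did not pass, where 18.7% of all genes were lower and 17.1% higher. TACR3, the receptor with highest affinity for neurokinin B that also binds the TAC1 peptides, went from 597 to 76.0 (-2.97 ± 0.17, adjusted p = 1.26e-66). The somatostatin receptors SSTR1 (-0.76 ± 0.055) and SSTR2 (-0.67 ± 0.088) and the neuropeptide Y receptor NPY1R (-0.51 ± 0.11) were lower as well. In i3Ns 2 of 11 were lower, 1 was higher and 8 did not pass, where 25.7% of all genes were lower and 22.8% higher. SSTR1 went from 30.8 to 300 there, a log2 fold change of 3.28 ± 0.28 (adjusted p = 3.57e-31), opposite to iMNs. GALR1, a galanin receptor with no row in iMNs, went from 2491 to 327 in i3Ns (-2.93 ± 0.078), the same direction as GAL.

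Of 11 regulators tied to these genes, 6 were lower and 3 were higher in i3Ns, where 25.7% of all genes were lower and 22.8% higher. In iMNs 5 of them were lower and 1 was higher, beside 18.7% and 17.1% of all genes. REST fell from 1783 to 262 in i3Ns (-2.77 ± 0.15, adjusted p = 1.62e-79) and from 713 to 347 in iMNs (-1.04 ± 0.12, adjusted p = 6.91e-17). CREB1 was lower alike in i3Ns (-0.38 ± 0.037) and iMNs (-0.42 ± 0.055), and its coactivator CRTC2 was higher in both (0.38 ± 0.11 and 0.49 ± 0.14).

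**Figure D4:**
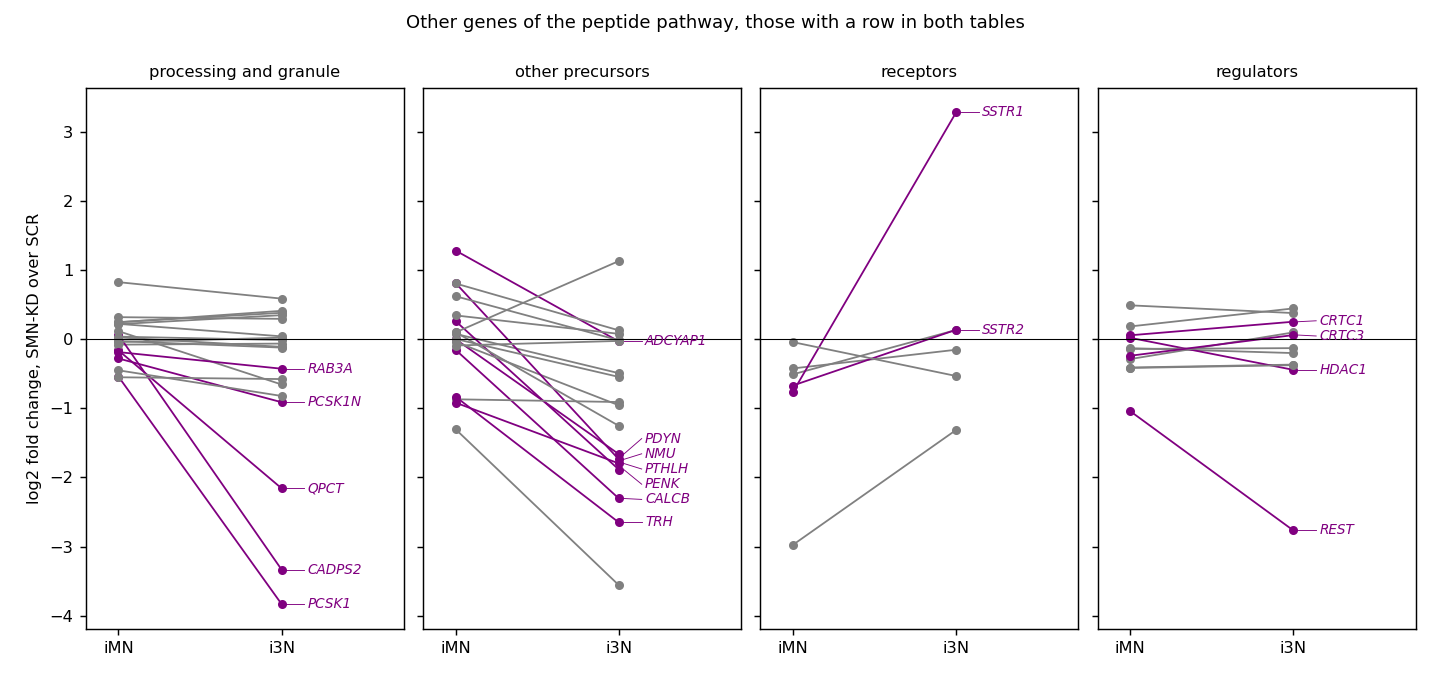
Log2 fold change (SMN-KD over SCR, y axis) of genes of 4 pathway lists in iMNs and i3Ns, each line a gene with a row in both tables, without error bars; genes whose difference between cell types passed an adjusted p of 0.01 are purple and named. PCSK1 and CADPS2 drop to -3.83 and -3.33 in i3Ns amid mostly level lines, several precursors drop, SSTR1 goes from -0.76 to 3.28, and REST is lower in both.

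Markers of other cells moved with the knockdown in i3Ns, where most members fell. The summed mean of 7 mesenchymal markers went from 11271 to 1842 in i3Ns, or 16.3% of SCR, with COL1A1 at -3.56 and COL3A1 at -4.01, and from 1936 to 3345 in iMNs. COL1A1, which went from 7795 to 660, made up most of the summed mean in SCR i3Ns. Individually, 4 of the 7 were lower, 2 were higher and 1 did not pass in i3Ns, where 25.7% of all genes were lower and 22.8% higher. Those higher were ACTA2 (0.64 ± 0.13) and TWIST1 (1.24 ± 0.55), which was scarce at 14.2 in SCR. Of 6 progenitor and proliferation markers, 4 were lower in i3Ns, with MKI67 at -3.15 and TOP2A at -3.13, and their sum went from 33470 to 27857. The sum of 7 glial markers, of which GFAP, AQP4 and SOX10 had no row, went from 1927 to 728 in i3Ns, where 2 of 3 with a row were lower, and from 401 to 359 in iMNs. GABAergic interneuron markers were low throughout, summing to 384 in SCR and 160 in SMN-KD i3Ns, where 2 of 7 were lower and 0 were higher, and SLC32A1 went from 270 to 40.1. Their part in the fall of VGF, SCG2, SST, GAL and NPY was not tested.

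The neurons held markers of their labelled types together with others. In iMNs, motor neuron markers were present (SLC5A7 at 10716, CHAT at 725, ISL1 at 1523 and MNX1, the HB9 gene, at 497 in SCR) but LHX3 was low at 14.0. Of the list 5 of 9 were lower, 2 were higher and 2 did not pass, where 18.7% of all genes were lower and 17.1% higher. CHAT had a log2 fold change of -1.09. In i3Ns, vesicular glutamate transporters were abundant, SLC17A6 at 14027 and SLC17A7 at 8038 in SCR, and were at 60.2% and 61.5% of that in SMN-KD. The i3N table had higher SCR means than the iMN table, normalized separately, for 6 of the 9 motor neuron markers. In i3Ns MNX1 was at 2552, ISL1 at 15146, ISL2 at 3133, LHX3 at 239, LHX4 at 9338 and CHAT at 937. SLC5A7, SLC18A3 and PRPH had higher SCR means in iMNs, at 10716, 3499 and 6669, against 3873, 2093 and 2530 in i3Ns. So 6 markers go against the label of iMNs as the motor neurons and the others go with it. The peripheral neuron marker POU4F1 was at 9517 in SCR i3Ns. Summed over its list, the glutamatergic level was 99.9% of SCR in SMN-KD i3Ns, the motor neuron level 95.2% and the peripheral neuron level 143%. The glutamatergic sum included SLC1A2, a glutamate transporter, which rose from 3608 to 10753, and NEUROD1, which rose from 1270 to 6808. Of those lists 4 of 8, 6 of 9 and 2 of 7 genes were lower in i3Ns, and 2, 2 and 1 were higher. Of all genes 25.7% were lower and 22.8% higher. Within these sums CHAT, at 12.5% of SCR, and TBR1, at 6.84%, fell and PRPH rose (log2 fold change 1.85).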

How the data were processed

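Total RNA was depleted of ribosomal RNA and sequenced as 150 bp paired-end reads by the authors, who used fastp for adapter trimming, Salmon for transcript quantification and DESeq2 for the comparison of groups. Versions, transcript annotation and low-count filter are not given in the sources used here, and the labels name hg38. Each of 2 tables holds results of the authors' comparisons, which are used here because the members are defined as rows of them. The deposited mean normalized count is a signal averaged over 6 libraries. The deposited fold change and standard error are on a log2 scale. Deposited p-values carry a Benjamini-Hochberg adjustment, which was recomputed over each table with a largest gap of 1.30e-15. Total counts per library were not analysed here, and mean normalized counts summed to 4.33e+07 (iMNs) and 4.50e+07 (i3Ns).

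Group means follow from the mean, the fold change and 3 libraries a group. Over genes with a mean of at least 1000, the ratio of fold change to standard error was close to the z of the deposited p-value. Its median share was 0.979 (iMNs) and 0.995 (i3Ns), which does not cover scarce genes. For GAL in iMNs the ratio was 1.43 against 2.44, and for the main identifier of SCG5 in i3Ns 0.23 against 0.76. Fold changes of scarce genes may thus be shrunken, and group means derived from them would then lie too close together. The difference between cell types was a two-sided Wald z, adjusted over 16093 genes. It was also run on simulated fold changes drawn with the deposited standard errors. That is the spread the test assumes, so the simulated run cannot tell how the test does on shrunken fold changes. Intervals are 95% and cover the deposited error. Positions and 3′-UTRs (MANE Select) are from GENCODE 44 on GRCh38, which lacks 693 iMN and 878 i3N identifiers. Python 3.11.15, pandas 2.3.3 and SciPy 1.17.1 were used.

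The members and lists were chosen with earlier results of these data known. Named were all members, SMN1 and SMN2, and from each list at most 4 genes with the largest called change at a mean of at least 100 and those with the highest level; others were named after their values were seen. Alternatives changed thresholds, filter, centring, standard errors, scaling and identifiers. Splicing was not analysed here.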

Additional observations from a re-analysis of the deposited data

Results flagged for a closer look

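For 6 members the effect of SMN-KD differed between i3Ns and iMNs by the test of the difference itself (i3N minus iMN log2 fold change). The difference was -4.30 ± 0.46 for GAL, with 3.19e-19 as its adjusted p. It was -2.58 ± 0.075 for VGF, -2.09 ± 0.061 for SCG2 and -1.98 ± 0.081 for SST. The chromogranins differed by less, at -0.31 ± 0.053 for CHGB and -0.30 ± 0.068 for CHGA. CHGB was called higher in iMNs and not called in i3Ns, whereas CHGA, VGF and GAL were called lower in i3Ns and not called in iMNs. Cell type, stem cell line and differentiation protocol cannot be told apart here.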

How the results depend on the processing

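Of 24 counts of called members under other settings, 22 stayed within 1.5 times the reported count. With no threshold on the fold change, 3 members instead of 1 were lower DEGs and 1 instead of 0 was a higher DEG in iMNs, which follows from how that setting is built. The call changed in 3 of 78 log2 fold changes, SCG3 (-0.12) and GAL (0.58) in iMNs, which passed at an adjusted p under 0.05, and SCG3 in i3Ns, which was lost with doubled standard errors (adjusted p = 0.113). Signs turned in 3 values that were not called, SCG5 with identifiers summed (0.13 in iMNs and 0.08 in i3Ns) and CHGB in i3Ns centred on the median (-0.0018). Direction and call were kept in 24 of 26 differences between cell types, and doubled standard errors ended the calls of CHGA (adjusted p = 0.140) and CHGB (adjusted p = 0.0298). For levels, summing identifiers moved CHGA to 189 and SCG5 to 83.0 per 1000000 in iMNs, and to 203 and 33.5 in i3Ns. Summing was chosen for the fold changes of CHGA and SCG5 after seeing the data. Leaving out a replicate and refits with edgeR or DESeq2 were not run, because values of single libraries were not analysed here. No paired analysis was possible because the tables hold no value for a single numbered library. Scarce transcripts (GAL in iMNs, NPY) and the main identifier of SCG5 limit the precision.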
